A study of Homo sapiens with 4 samples.

Results

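The clustered protocadherin genes lie side by side on the long arm of chromosome 5, and their stretch was taken as chr5:140100001-140950000 in build hg19, a length of 850.0 kb. It was divided at fixed borders into the alpha array (PCDHA, chr5:140165001-140392000), the beta array (PCDHB, chr5:140430001-140628000), the gamma array (PCDHG, chr5:140710001-140893000) and the 4 stretches before, between and after them. CHD5 peaks were assigned by their midpoint, and 15 of the 32543 peaks of the CHD5 list fell in the interval. Of the 257073 regions of the H3K27me3 list, 0 did. The data come from SH-SY5Y, an established human neuroblastoma cell line that becomes neuron-like in retinoic acid, and every library of the study came from cells kept in 10 uM retinoic acid for 8 days. CHD5 was read from SH-SY5Y cells expressing FBio-CHD5, a tagged form of this chromatin remodelling helicase, by pull-down on streptavidin beads. H3K27me3, the repressive histone mark laid down by Polycomb complexes, was precipitated with an antibody from the same FBio-CHD5 cells, so it was read in cells that carry the introduced protein and not in cells with CHD5 at its native level alone. The lists of 2 of the 4 libraries were used. The other libraries, the Fbio-Ctrl pull-down and the input DNA, were not used here, and each library is the only one of its group. No value therefore has a replicate error, no test between groups was possible, and the lists hold no read counts, so the depth is unknown.

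Clustered protocadherins are cell adhesion proteins of the neuronal surface. In the alpha and gamma arrays each variable exon has its own promoter and encodes the extracellular, membrane and first cytoplasmic part of a protein, and it is spliced to a set of constant exons at the 3′ end of the array that encode the shared cytoplasmic end. The beta genes have no constant exons. A neuron usually transcribes a small, largely random choice of the alternate alpha, beta and gamma exons, whereas the C-type exons, which stand last in the alpha and gamma arrays, are used more evenly between neurons. The conserved sequence element, a promoter motif with the core CGCT, and the factor CTCF are known for their part in that choice.

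In the order of the RefSeq annotation the clusters hold 13 alternate alpha genes (PCDHA1 to PCDHA13) and then PCDHAC1 and PCDHAC2, 16 beta genes from PCDHB1 to PCDHB15, and 12 gamma A and 7 gamma B genes followed by PCDHGC3, PCDHGC4 and PCDHGC5. SLC25A2, a mitochondrial carrier gene, and TAF7, which encodes a subunit of the general transcription factor TFIID, stand between the beta and gamma genes. The vault RNA genes VTRNA1-1, VTRNA1-2 and VTRNA1-3 precede the alpha genes, and DIAPH1, a formin that nucleates actin filaments, follows PCDHGC5. That annotation belongs to another build, GRCh38.p14, and its coordinates were not carried over to the peak lists. The peaks are therefore placed by array and by distance from its border, and which single exon or promoter a peak covers was not analysed here.

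Promoter sequences are shown for the first alternate gene of the alpha and gamma arrays and for C-type genes, because the C-type genes stand at the 3′ side of their arrays, the side on which the CHD5 peaks were found. RefSeq promoter windows of 300 bases (250 before and 50 after the gene start, GRCh38.p14) were matched for 47 of the 53 genes. PCDHA3, PCDHA13, PCDHB6, PCDHB11, PCDHGA12 and PCDHGC5 were not matched. Each line gives the 150 bases just before the gene start, 5′ to 3′, with CpG dinucleotides in capitals. On the plus strand of GRCh38.p14 they lie at chr5:140785990-140786139 for PCDHA1, chr5:140926149-140926298 for PCDHAC1, chr5:140966326-140966475 for PCDHAC2, chr5:141330364-141330513 for PCDHGA1 and chr5:141475816-141475965 for PCDHGC3.
PCDHA1: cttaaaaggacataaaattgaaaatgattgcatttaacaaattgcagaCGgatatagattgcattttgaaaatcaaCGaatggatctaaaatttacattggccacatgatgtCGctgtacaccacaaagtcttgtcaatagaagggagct
PCDHAC1: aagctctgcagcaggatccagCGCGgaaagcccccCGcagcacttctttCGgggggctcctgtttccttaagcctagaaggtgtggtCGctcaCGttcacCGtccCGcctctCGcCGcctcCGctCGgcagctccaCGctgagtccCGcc
PCDHAC2: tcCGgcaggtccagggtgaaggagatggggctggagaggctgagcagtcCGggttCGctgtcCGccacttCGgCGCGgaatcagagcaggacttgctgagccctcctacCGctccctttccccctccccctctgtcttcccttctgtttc
PCDHGA1: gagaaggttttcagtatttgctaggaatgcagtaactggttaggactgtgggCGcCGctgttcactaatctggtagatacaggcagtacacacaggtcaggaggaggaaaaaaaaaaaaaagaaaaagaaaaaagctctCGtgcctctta
PCDHGC3: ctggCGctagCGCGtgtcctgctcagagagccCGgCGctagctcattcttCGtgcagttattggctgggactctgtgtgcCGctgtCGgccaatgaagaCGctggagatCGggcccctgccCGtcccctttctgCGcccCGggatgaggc

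The alternate promoters were poorer in G and C than the C-type ones. In these 150 bases, PCDHA1 and PCDHGA1 held 3 CpG each, whereas PCDHAC1 held 14, PCDHGC3 held 13 and PCDHAC2 held 8. Over the whole 300-base windows, G and C made up 66.0% at PCDHAC1, 63.0% at PCDHAC2, 59.0% at PCDHGC3 and 60.7% at PCDHGC4. The 43 alternate and beta windows ranged from 32.3% at PCDHGA4 to 51.3% at PCDHGB2 with a median of 38.7%, so that they did not overlap the C-type genes. The 35116 promoter windows of the table had a median of 58.7%, which put the alternate and beta windows below, and the C-type windows near or above, the usual promoter. For 5 genes the table holds a second, more downstream window, and the one nearer the 5′ side was used. In the second windows the separation was lost, since PCDHGB6 reached 65.0%.

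**Figure D1:**
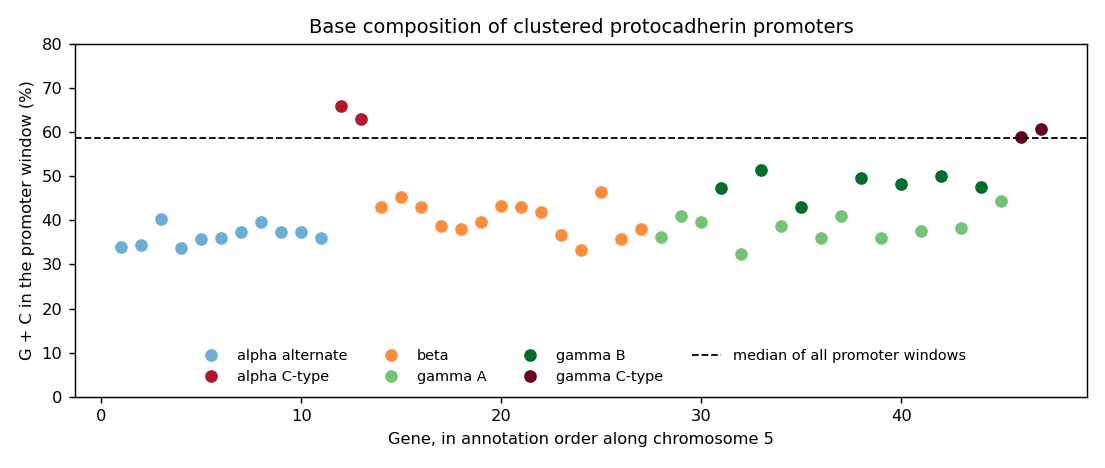
Share of G and C (percent, vertical axis) in the 300-base promoter window of 47 clustered protocadherin genes, ordered along chromosome 5, with 1 point per gene coloured by group and the median of all promoter windows as a dashed line. The 4 C-type genes lie between 59.0% and 66.0%, above the 43 others, which lie between 32.3% and 51.3%. For the 5 genes with a second window only the one nearer the 5′ side is drawn, and the second windows reach 65.0%.

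The letters CGCT were nearly universal in the promoter windows of the clusters. On the sense strand CGCT occurred in the window of 42 of the 43 alternate and beta genes, PCDHA9 being the exception, and in 4 of 4 C-type genes, against 54.3% of all promoter windows. Counting both strands (CGCT or its complement AGCG, which can overlap each other), it was in the same number, 42 of the 43 and 4 of 4, against 70.0% of all windows. Within the 100 bases before the gene start, a distance chosen after the positions were seen, 44 of the 47 genes had a sense CGCT, against 28.7% of all windows. The remaining genes were PCDHA9, PCDHB8 and PCDHGB2. A match is a match of letters, not the whole conserved sequence element and not a bound site. Its lack says only that these letters are not in the window. Whether a window holds the whole element was not analysed, for the C-type genes as for the others.

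The surroundings of CGCT are shown for genes with 1 sense match before the start, since they let the bases next to it be compared between arrays. Each line gives 40 bases, 5′ to 3′ on the plus strand of GRCh38.p14, with the CGCT match in capitals. The windows are chr5:140786084-140786123 for PCDHA1, chr5:140794779-140794818 for PCDHA2, chr5:140855839-140855878 for PCDHA10, chr5:141172564-141172603 for PCDHB7, chr5:141338701-141338740 for PCDHGA2, chr5:141412929-141412968 for PCDHGA10 and chr5:141484950-141484989 for PCDHGC4.
PCDHA1: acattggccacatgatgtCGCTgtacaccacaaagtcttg
PCDHA2: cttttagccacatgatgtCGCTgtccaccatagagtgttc
PCDHA10: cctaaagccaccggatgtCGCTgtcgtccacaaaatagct
PCDHB7: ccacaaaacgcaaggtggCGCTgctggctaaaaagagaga
PCDHGA2: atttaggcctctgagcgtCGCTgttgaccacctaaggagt
PCDHGA10: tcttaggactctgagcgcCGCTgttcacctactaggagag
PCDHGC4: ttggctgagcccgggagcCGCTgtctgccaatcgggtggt

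The match began 38 bases before the start of PCDHA1, 55 before that of PCDHA2, and 40 before PCDHA10 and PCDHGA10. It began 41 before PCDHGA2, and 62 before PCDHB7 and PCDHGC4. Outside the match, PCDHA1 and PCDHA2 were identical at 27 of 36 positions, PCDHA2 and PCDHA10 at 22, and PCDHA1 and PCDHA10 at 21. PCDHGA2 and PCDHGA10 were identical at 24 of 36, whereas the C-type gene PCDHGC4 of the same array matched them at 14 and 16. Pairs of genes from different arrays were identical at 10 to 19 of 36, a range that takes in the values of PCDHGC4 with the gamma A genes. The genes shown were chosen after the positions of the matches were known.

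H3K27me3 was not listed anywhere over the clusters. The 850.0 kb held 0 regions and 0 bp of H3K27me3, in the variable-exon arrays, at the 3′ constant ends and in the stretches between alike. Chromosome 5 as a whole held 13784 regions, or 76.2 per Mb, and had 2.20% of its length under them. The region nearest on the 5′ side was chr5:139174264-139174424, which was 161 bp wide and scored 55.86, and it ended 0.926 Mb before the interval. On the 3′ side the nearest was chr5:141254686-141254903, which was 218 bp wide and scored 77.76, and it began 0.305 Mb after the interval. The score is the authors' peak score, which starts at 50 in both lists and has no stated scale. Both flanking regions therefore lay below the median score of their list, 84.6, and below its median width, 238 bp.

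The stretch without H3K27me3 was thus 2.08 Mb long. The running numbers that the list gives its regions differ by 1 across it, so no region of the list is missing there. Of the 13783 gaps between neighbouring H3K27me3 regions on chromosome 5, 5 were at least as long, and of the 257049 gaps on all chromosomes 93 were, gaps across unsequenced parts of the genome included. Larger accumulations of the mark were farther away. When regions up to 3 kb apart were joined, the nearest domain of at least 5 kb lay 5.21 Mb before the interval, at chr5:134864944-134886569, and 4.77 Mb after it, at chr5:145715780-145726783, with 44 regions between these domains. A place with no listed region is one without a peak past the authors' threshold, and whether a lower level of the mark was present cannot be told from the lists.

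CHD5 peaks, by contrast, were present, and they were unevenly placed. Their density in the interval was 17.6 per Mb, against 11.02 on chromosome 5 and 11.2 on the autosomes, and 4.04% of the interval lay under them, against 2.04% of chromosome 5. The alpha array held 6 peaks, the gamma array 3, the beta array 1, the stretch between alpha and beta 1 and the stretch after gamma 4. The stretch before alpha and the stretch between beta and gamma, which are 65.0 and 82.0 kb long, held 0 each. One more peak crossed the 3′ border of the gamma array, with its midpoint beyond it, so that 4 peaks touched that array.

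**Figure D2:**
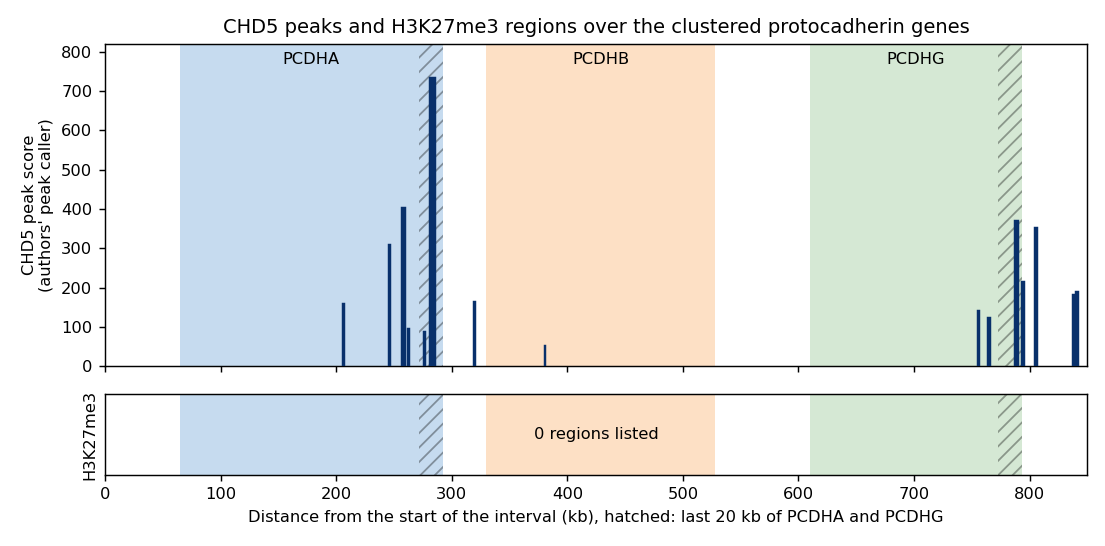
CHD5 peaks of the interval, drawn at their true width with the authors' score as height (upper panel), and H3K27me3 regions (lower panel, 0 listed), against the distance in kb from the start of the interval. Shading marks the arrays and hatching the last 20 kb of PCDHA and PCDHG. The peaks form a group at the 3′ side of PCDHA and another from the 3′ side of PCDHG onwards, with 1 low peak in PCDHB.

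In the alpha array the variable part was empty of CHD5 over most of its length. No peak lay in its first 140 kb, which is 61.7% of the array and lies on the side of the alternate exons. The first peak, chr5:140305101-140306784, was 1684 bp wide, scored 161.93 and had its midpoint 86.1 kb from the 3′ border. The next, chr5:140344435-140346625, was 2191 bp wide, scored 310.31 and lay 46.5 kb from the border. These 2 peaks stood apart from each other by 37.7 kb, whereas the following ones were closer together.

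The peak chr5:140355924-140359117 was 3194 bp wide and scored 404.98, 34.5 kb from the 3′ border of the alpha array. It was followed after 2.53 kb by chr5:140361652-140362721, which was 1070 bp wide and scored 96.93. A peak of 1278 bp that scored 90.64 came next, at chr5:140375172-140376449. The last and strongest was chr5:140380430-140385171, which was 4742 bp wide, scored 736.37 and had its midpoint 9.20 kb from the border. It was the highest-scoring and the widest of the 15 peaks, and 2.21% of all CHD5 peaks scored at least as high. The peaks of this array thus ran from 90.64 to 736.37 in score, and the 2 weakest stood between the 2 strongest.

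The gamma array, with 3 peaks against 6, also had an empty first part and its widest peak near the 3′ border. Its first 145 kb, or 79.0% of its length, held 0 CHD5 peaks. The first peak, chr5:140854640-140856111, was 1472 bp wide and scored 142.30, 37.6 kb from the 3′ border. The second, chr5:140863314-140865278, was 1965 bp wide and scored 126.00, 28.7 kb from the border. A wider and higher peak, chr5:140886049-140889943, followed 5.004 kb from the border, with 3895 bp and a score of 371.28. It was also the second widest of the 15. The peak across the border, chr5:140892411-140895258, began 2.47 kb after it, was 2848 bp wide and scored 217.41.

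The beta array as a whole differed from the other two, although the first 140 kb of the alpha and the first 145 kb of the gamma array held 0 peaks. The only peak of the beta array was chr5:140479466-140480462, 997 bp wide and scoring 54.78, close to the lowest score of the list. It was the narrowest and lowest of the 15, and 94.2% of all CHD5 peaks scored higher. It lay 49.96 kb from the 5′ border, and the last 20 kb of the beta array were free of CHD5. CHD5 density was 5.05 peaks per Mb in the beta array, against 26.4 in the alpha and 16.4 in the gamma array.

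The 3′ ends were compared with the rest of each array by the length under CHD5 peaks, taking the last 20 kb as the end, on the side of the constant exons. In the alpha array 30.1% of the end and 3.93% of the rest lay under peaks, a ratio of 7.66. In the gamma array it was 22.4% of the end and 2.11% of the rest, a ratio of 10.6. The gamma value depends on the width taken as the end, since the last 10 kb alone had 44.9% under peaks and the last 35 kb 18.4%. In the beta array it was 0% of the end and 0.560% of the rest. The rest of the gamma array was thus near the 2.04% of chromosome 5, and the beta array below it. In the alpha end 4742 of the 6020 bp under CHD5 belonged to 1 peak, and in the gamma end 3895 of the 4485 bp did. The rest of the alpha and gamma arrays takes in their first 140 and 145 kb, which held 0 peaks. With 1 library there is no error for these shares.

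**Figure D3:**
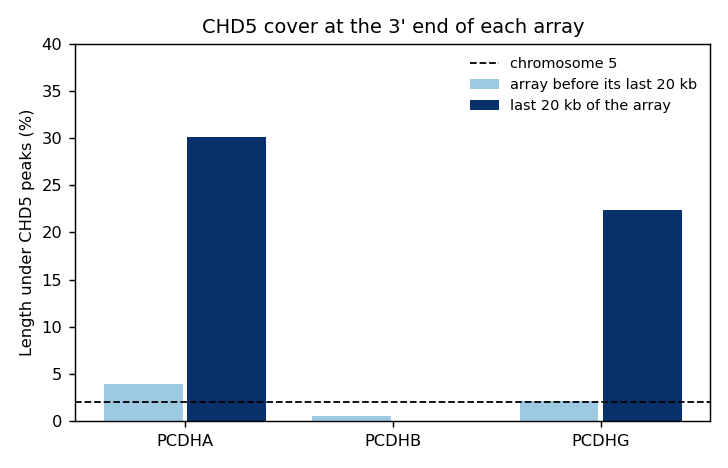
Percent of length under CHD5 peaks (vertical axis) in the last 20 kb of each array (dark bars) and in the array before them (light bars), with the value of chromosome 5 as a dashed line. The ends of PCDHA and PCDHG are at 30.1% and 22.4%, the end of PCDHB at 0%.

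Outside the arrays, the peak between alpha and beta, chr5:140418619-140420462, was 1844 bp wide and scored 165.99. After the gamma array, beyond the peak across its border, stood chr5:140903407-140906187, with 2781 bp and a score of 353.74. The pair chr5:140936484-140938634 and chr5:140939257-140941478 scored 184.05 and 191.15 and were 0.622 kb apart. In annotation order DIAPH1 is the gene that follows the gamma genes, so this last group is on its side of the cluster and not in the variable exons. The stretch after gamma had 16.5% of its length under CHD5, more than any whole array.

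Joined across gaps of up to 40 kb, the 15 peaks formed 2 runs of 7 peaks each and the single beta peak. The alpha run reached from chr5:140305101 to chr5:140420462, a length of 115 kb of which 13.9% was covered, and its scores had a median of 165.99. It held the 6 peaks of the alpha array and the 1 between alpha and beta. The gamma run reached from chr5:140854640 to chr5:140941478, 86.8 kb with 19.96% covered and a median score of 191.15. It extended past the gamma array, on the side of DIAPH1. Of its 7 peaks, 3 had their midpoint in the array, with a median score of 142.30. The other 4 had it after the array, with a median of 204.28. The highest score was 736.37 in the alpha run and 371.28 in the gamma run. In the whole list 5.39% of runs had 7 or more peaks, and these runs held 24.8% of all peaks. Between the runs lay 374 kb with no CHD5 peak, from chr5:140480463 to chr5:140854639, which took in most of the beta array and the first 145 kb of the gamma array. Ahead of the alpha run 376 kb were free, from chr5:139929559 to chr5:140305100. Gaps of at least 374 kb made up 3.77% of all gaps between CHD5 peaks, and 80 of them were on chromosome 5. This is a share of the number of gaps and not of length.

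As a set, the 15 peaks were somewhat wider and higher than the list. Their median width was 2151 bp, against 1647 bp, and their median score 184.05, against 117. Of the 15, 8 were at least 2 kb wide, against 35.4% of all, and 8 had at least 4 other peaks within 40 kb, against 21.1%. The latter lay in the runs described above and were neighbours of one another, so they are not separate cases. Width and score went together among the members, with a Spearman rho of 0.954 over 15 peaks of 1 library. It is given as a description, and with no value over the whole list beside it, it is not shown to be particular to them.

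Since no H3K27me3 region was listed, 0 of the 15 CHD5 peaks overlapped one, and over the whole list 2.19% of CHD5 peaks did. The 0 of 15 is near that share and is not a result about the clusters. The nearest region lay between 313 and 948 kb from the 15 peaks, with a median of 774 kb, where the median over all CHD5 peaks was 166 kb. These distances follow from the empty stretch around the interval, which all 15 peaks share, and add nothing to it.

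**Figure D4:**
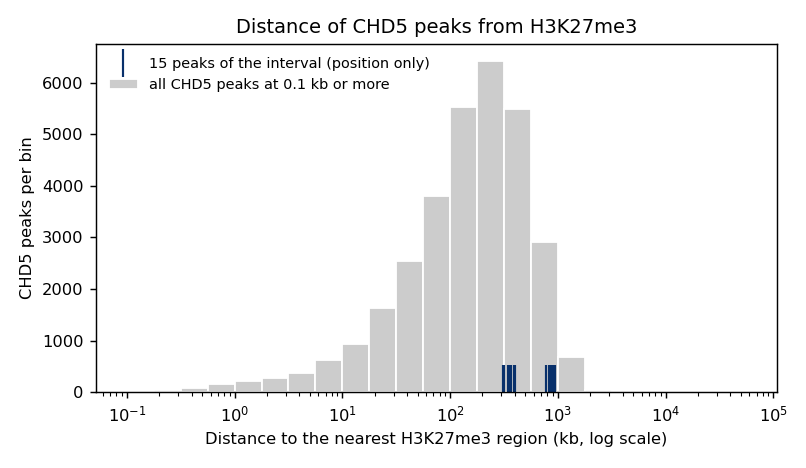
Distance from each CHD5 peak to the nearest H3K27me3 region (kb, log scale) as a histogram of all peaks at 0.1 kb or more (grey, peaks per bin), with the 15 peaks of the interval as ticks at their distance only. The ticks lie between 313 and 948 kb, to the right of the overall median of 166 kb.

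The interval was not the only part of the H3K27me3-free stretch with CHD5. The stretch held 44 CHD5 peaks, of which 29 lay outside the interval. In the 0.926 Mb before the interval there were 14 peaks, or 15.1 per Mb, with a median score of 83.8. In the 0.305 Mb after it there were 15, or 49.2 per Mb, with a median score of 144. The highest score outside the interval was 362.60, so that 3 of the protocadherin peaks, those of 736.37, 404.98 and 371.28, were the highest of the whole stretch.

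**Figure D5:**
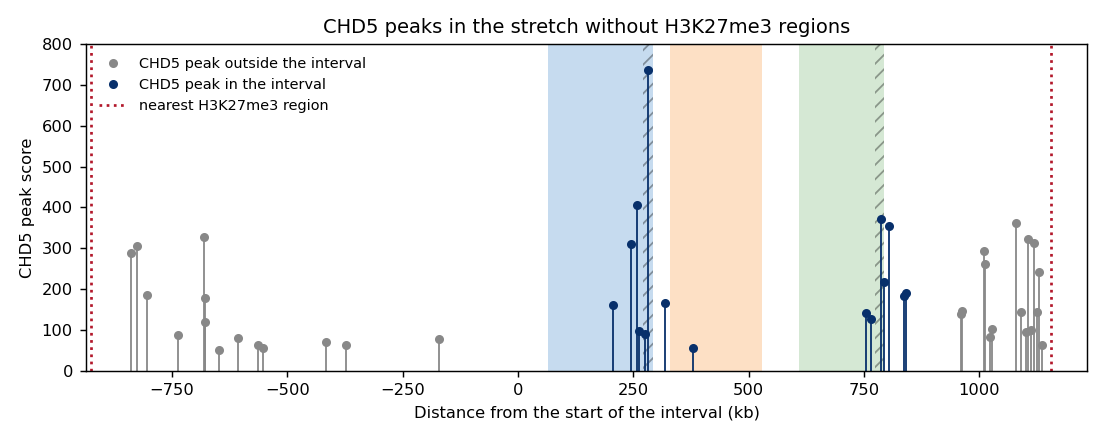
CHD5 peaks (score on the vertical axis) over the 2.08 Mb without H3K27me3 regions, by distance in kb from the start of the interval. Dark points are the 15 peaks of the interval, grey points the 29 others, shading the arrays, hatching the last 20 kb of PCDHA and PCDHG, and dotted lines the flanking H3K27me3 regions. The highest point, 736.37, lies at the 3′ end of PCDHA.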

How the data were processed

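Region lists from ChIP-seq of 2 libraries were used, 1 for the CHD5 pull-down and 1 for H3K27me3, with groups taken from the sample titles. Per the file headers, each list holds MACS peaks of a single library. Per the submitters' processing notes, positions refer to hg19. For the aligner, and for the version, threshold and background library of MACS, no record was found in the sources used here. The authors' score per region was deposited with each list and was used only within its list. Its scale and the depth are unknown. Positions are those deposited, counted from 1.

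Peaks were assigned by midpoint, cover was counted in bp, and overlap meant at least 1 bp. Bedtools 2.31.1 gave the same count of 712 overlapping CHD5 peaks. Routines were tested on simulated rows. Python 3.11.15, numpy 2.4.6, pandas 2.3.3 and matplotlib 3.10.9 were used. The members, borders and lists were chosen with earlier results of these data known. By rule, every CHD5 peak of the interval was named, as there were no more than 20. The rule's H3K27me3 positions had no member. Of the promoters the rule allows, those of a beta gene and of PCDHGC4 are given only around the CGCT match, and protein sequences were not used here. Promoter sequences come from RefSeq (GRCh38.p14) and were matched by symbol.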

Additional observations from a re-analysis of the deposited data

How the results depend on the processing

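The absence of listed H3K27me3 regions from the interval, in cover, regions, domains, 3′ ends and overlap with CHD5, was the same under 12 alternatives. They changed the score limit, joining, array borders, assignment, width of the 3′ end and the overlap that counts. None could have given another value, because the nearest listed region lay 0.305 Mb from the interval, so they do not test the absence. The interval held 15 CHD5 peaks also when any overlap counted or when it was 50 kb wider on each side, and 12 with scores at or above the list median. The alternatives by array, by CHD5 cover and by the length of the free stretch were chosen after the data were examined. With the score limit the beta array lost its peak and held 0, and the alpha array held 4. Taking the last 10 kb as the end of the gamma array raised its CHD5 cover from 22.4% to 44.9%, since its peaks there lie within the last 10 kb, and the last 35 kb gave 18.4%. The alpha end had from 23.7% to 31.7%. Counting only joined domains of at least 5 kb made the stretch without H3K27me3 10.8 Mb long, and counting only regions at or above the median score made it 2.52 Mb. No paired analysis was possible because each group has 1 library, so leaving out a replicate was not possible either. Depth, which the lists do not hold, limits what the empty stretches show.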
